A study of Mus musculus with 9 samples.

Results

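The collagen chains described here were the genes of the deposited expression table whose symbol has the form Col, a number, a, a number, and whose listed transcript types include protein coding. The rule found 44 genes of 55385 in the table. For 7 of them protein coding was the sole listed type, and the others listed further types beside it. The 44 chains comprise 11 fibrillar chains, 6 type IV chains, 6 type VI chains, 9 FACIT chains (fibril-associated collagens with interrupted triple helices) and 12 others. The expression data were bulk RNA sequencing of MCP5, a wild-type mouse podocyte cell line. In all, 3 libraries came from cells given AGEs (advanced glycation end products, sugar-modified proteins) at 400 µg/mL, 3 came from cells in high glucose at 50 mmol/L, and 3 came from control cells without treatment. The length of the treatments is not given in the sources used here. All groups share the wild-type genotype and the same line, and nothing in the labels says that the libraries of a group came from separate cultures, so p-values cover the variation among these libraries alone and part of it may be technical.

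Collagens are trimers of chains that coil into a triple helix, and each type is built from its own set of chains. Fibrillar collagens form the ropes of connective tissue, FACIT chains sit on the surface of such fibrils, and type VI chains form beaded microfibrils. Type IV chains form the sheet-like network of basement membranes. Podocytes, the cells that cover the outside of the glomerular capillary, are known in the kidney as the source of the trimer of the Col4a3, Col4a4 and Col4a5 chains in the mature glomerular basement membrane, while the trimer of Col4a1 and Col4a2 is found in most basement membranes.

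Libraries held between 46284878 and 77242281 counts, the lowest being the second high-glucose library, and 17680 genes passed the filter on low counts and were tested. Of 10 podocyte marker genes 7 passed the filter. Wt1 (a podocyte transcription factor) had 11 counts in all, and the summed podocyte marker level was 116 to 117 FPKM with AGEs, 108 to 111 FPKM in high glucose and 91.4 to 109 FPKM in control. FPKM is the deposited level, scaled to transcript length and library depth. Markers of parietal and tubular epithelium summed to 569 to 629 FPKM in high glucose against 143 to 153 FPKM in control, with 4 of 6 higher by the test below, and to 136 to 166 FPKM with AGEs. Markers of mesangial cells and fibroblasts summed to 67.8 to 88.9 FPKM with AGEs, 36.5 to 59.0 FPKM in high glucose and 61.3 to 78.0 FPKM in control, with 2 of the 7 tested lower in high glucose than in control. Endothelial markers stayed at or below 0.165 FPKM in sum, and leukocyte markers summed to 15.3 to 20.04 FPKM with AGEs, 18.8 to 21.6 FPKM in high glucose and 20.02 to 23.6 FPKM in control. Of the 4 leukocyte markers, 1 (Csf1r) was higher and 1 (Cd68) lower in high glucose than in control by the same test. The leukocyte sum was almost all Cd68 and Csf1r. Ptprc stayed at or below 0.065 FPKM and Adgre1 at or below 0.0765 FPKM in every library. The part of the markers of any cell type in the collagen results was not tested. In bulk RNA, fewer cells of a type and less RNA per cell cannot be told apart.

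The collagen RNA of these cells was dominated by Col18a1, followed by the type IV chains. Only 10 of the 44 chains reached a mean of 1 FPKM in any group: Col18a1, all 6 type IV chains, Col16a1, Col5a1 and Col6a1. Another 12 passed the filter below that level, namely 6 fibrillar chains (Col1a1, Col1a2, Col2a1, Col3a1, Col11a2 and Col27a1), Col6a2, the FACIT chains Col12a1 and Col9a3, the short-chain network chains Col8a1 and Col10a1, and Col7a1. A further 14 had counts but failed the filter, with 3 to 58 counts over all 9 libraries: Col5a2, Col5a3, Col24a1, Col6a3, Col6a4, Col6a5, Col9a2, Col14a1, Col20a1, Col22a1, Col15a1, Col17a1, Col23a1 and Col28a1. For 8 chains no count was recorded in any library: Col11a1, Col6a6, Col9a1, Col19a1, Col13a1, Col25a1, Col8a2 and Col26a1. A count of 0 allows up to 3 counts, or 0.0388 to 0.0648 CPM (counts scaled to library size) depending on the library, for counting error only. This limit takes each count as 1 independent fragment, which was not tested, and values of 4 and 8 were commoner than 3 and 7 among low counts. By the highest group mean, the class makeup was uneven: all 6 type IV chains reached 1 FPKM, but 1 of 11 fibrillar, 1 of 6 type VI and 1 of 9 FACIT chains. In control alone, Col4a1, Col4a2 and Col4a3 averaged 0.62, 0.62 and 0.57 FPKM, and Col6a1 averaged 0.28 FPKM. None of the 4 transmembrane chains (Col13a1, Col17a1, Col23a1 and Col25a1) passed the filter. Col10a1 had 98 counts in all and lies inside Nt5dc1, on the opposite strand, which had 15178 counts. Whether the counting used strand is not given in the sources used here, so its reads are uncertain, as are those of Col20a1 beside 9230112E08Rik.

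Col18a1, the core protein of a basement membrane heparan sulfate proteoglycan and the source of endostatin (chromosome 10, 77052178 to 77166548, minus strand), had 44.5, 44.7 and 58.5 FPKM with AGEs, 73.4, 75.2 and 75.6 FPKM in high glucose and 42.8, 44.6 and 49.5 FPKM in control. High-glucose libraries lay above all others, while the AGEs and control libraries overlapped. It made up 68.9% ± 2.55 of summed collagen FPKM with AGEs, 70.5% ± 2.96 in high glucose and 72.0% ± 1.82 in control (SD, n = 3 each). It rose 1.45-fold in high glucose relative to control (log2 fold change 0.54, SE 0.12, edgeR adjusted p = 0.00504).

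**Figure D1:**
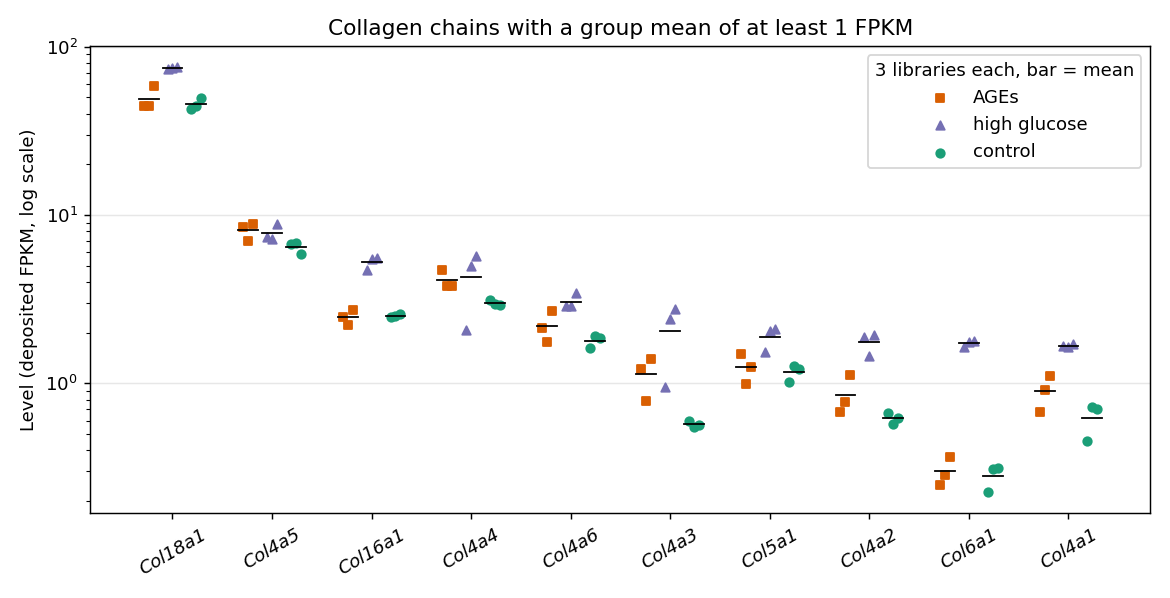
Deposited level (FPKM, log axis) of the 10 collagen chains with a group mean of at least 1 FPKM, by library, with AGEs, high glucose and control from left to right for each chain and a bar at each group mean. Col18a1 lies between 42.8 and 75.6 FPKM, all other chains lie below 10 FPKM, and the first high-glucose library is the low point of Col4a3 and Col4a4 in that group.

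High glucose against control asks which chains differ under a high sugar load. No group served as an osmotic control, so sugar and osmotic load cannot be told apart. In this comparison 11 of the 22 chains tested rose and 0 fell, which is 50% of those tested, against 39.3% of all genes called, 19.6% higher and 19.7% lower (edgeR quasi-likelihood test, Benjamini-Hochberg adjusted p under 0.05). In FPKM, 14 of the 22 chains had high-glucose libraries all above control and 0 all below, against 54.8% of all genes in either direction (36.5% above and 18.3% below). The median log2 fold change was 0.96 over the 22 chains and 0.03 over all genes tested. Both are descriptions: a low chain can pass the filter through the group in which it is high. By class, 2 of 7 fibrillar, 4 of 6 type IV, 2 of 2 type VI and 1 of 3 FACIT chains rose, as did Col18a1 and Col7a1.

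Among the type IV chains, Col4a1 and Col4a2 moved together. Col4a1 (chromosome 8, 11198423 to 11312826, minus strand) had 0.675, 0.912 and 1.11 FPKM with AGEs, 1.66, 1.64 and 1.71 FPKM in high glucose and 0.453, 0.721 and 0.699 FPKM in control. Col4a2 (chromosome 8, 11312805 to 11449287, plus strand) had 0.672, 0.774 and 1.12 FPKM with AGEs, 1.89, 1.46 and 1.94 FPKM in high glucose and 0.664, 0.572 and 0.625 FPKM in control. For both genes every high-glucose library lay above every library of the other groups. In high glucose Col4a1 rose 2.37-fold over control (log2 1.24, SE 0.22, edgeR adjusted p = 0.00192) and Col4a2 rose 2.52-fold (log2 1.33, SE 0.22, edgeR adjusted p = 0.00101).

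The trimer partners Col4a3, Col4a4 and Col4a5, whose loss underlies Alport kidney disease, differed in pattern. Col4a3 (chromosome 1, 82586921 to 82722059, plus strand) had 1.21, 0.790 and 1.39 FPKM with AGEs, 0.957, 2.41 and 2.77 FPKM in high glucose and 0.600, 0.547 and 0.565 FPKM in control, so both treated groups lay above control. Col4a4 (chromosome 1, 82448423 to 82586849, minus strand) had 4.72, 3.81 and 3.79 FPKM with AGEs, 2.08, 4.996 and 5.69 FPKM in high glucose and 3.13, 2.95 and 2.94 FPKM in control. Its first high-glucose library lay below every control library and the others lay above. Col4a5 (chromosome X, 141475385 to 141689234, plus strand), the most abundant type IV chain, had 8.47, 7.02 and 8.81 FPKM with AGEs, 7.37, 7.21 and 8.80 FPKM in high glucose and 6.72, 6.80 and 5.87 FPKM in control. On the scale of the test, CPM with library-size correction, its high-glucose libraries held 51.6, 49.2 and 59.9 CPM against 52.4, 52.3 and 45.8 CPM in control, and the groups overlapped.

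Of these chains Col4a3 rose in high glucose relative to control, 3.15-fold (log2 1.66, SE 0.35, edgeR adjusted p = 0.00483). Col4a4 had a log2 fold change of 0.32 (SE 0.29, edgeR adjusted p = 0.433) and Col4a5 of 0.09 (SE 0.12, edgeR adjusted p = 0.577), and neither passed the test. Without the first high-glucose library, Col4a4 passed it at log2 0.64 (edgeR adjusted p = 0.00409). Col4a6, a partner of Col4a5 in other basement membranes (chromosome X, 141165403 to 141474076, minus strand), averaged 2.20 ± 0.48 FPKM with AGEs, 3.06 ± 0.32 FPKM in high glucose and 1.79 ± 0.16 FPKM in control (SD, n = 3 each). It rose 1.51-fold in high glucose over control (log2 0.60, SE 0.17, edgeR adjusted p = 0.0176), a call that was lost without the first control library (adjusted p = 0.0679) or the third high-glucose library (adjusted p = 0.0645). The mix of type IV RNA also differed in level: Col4a5 made up 46.8% of summed type IV FPKM with AGEs, 38.3% in high glucose and 49.4% in control, while Col4a3 made up 6.47% with AGEs, 9.59% in high glucose and 4.37% in control. By library the Col4a3 share was 6.79%, 5.25% and 7.36% with AGEs and 5.69%, 11.7% and 11.4% in high glucose. The first high-glucose library thus lay within the AGEs range.

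The type IV genes lie in head-to-head pairs. In the coordinates of the deposited table (GRCm38), the Col4a1 and Col4a2 genes overlap by 22 bases at their starts, Col4a4 and Col4a3 start 72 bases apart and Col4a6 and Col4a5 start 1309 bases apart. The 300-base RefSeq windows (GRCm38.p6, 250 bases before and 50 after the start) are shown for Col4a1 and Col4a4, because each also holds the annotated start of its partner. The Col4a1 window is chr8:11312777-11313076, minus strand, and the Col4a4 window is chr1:82586800-82587099, minus strand. Capitals mark matches, on either strand, to GGGCGG (GC box) and CCAAT.
Col4a1: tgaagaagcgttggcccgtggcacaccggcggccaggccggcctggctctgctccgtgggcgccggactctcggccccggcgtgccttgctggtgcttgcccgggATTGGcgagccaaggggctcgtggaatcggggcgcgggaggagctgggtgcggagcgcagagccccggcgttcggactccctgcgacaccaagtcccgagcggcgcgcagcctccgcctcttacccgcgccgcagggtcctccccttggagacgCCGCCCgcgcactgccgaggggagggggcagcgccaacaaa
Col4a4: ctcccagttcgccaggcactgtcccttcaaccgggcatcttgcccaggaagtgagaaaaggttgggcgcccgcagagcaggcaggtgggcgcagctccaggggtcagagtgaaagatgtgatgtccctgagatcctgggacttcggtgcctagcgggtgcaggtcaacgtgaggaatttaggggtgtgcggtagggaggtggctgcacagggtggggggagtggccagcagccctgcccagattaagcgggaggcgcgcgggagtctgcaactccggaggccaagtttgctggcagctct
The Col4a1 window holds 1 GGGCGG and 1 CCAAT match, and the Col4a4 window holds neither. None was found in either window of TATAAA (the TATA box), CAGACA (a Smad box type) or TGATGCAA (an ATF4 and CHOP composite type). Of the 38 windows of the 35 collagen symbols listed in RefSeq, 60.5% held the GC box, 34.2% CCAAT, 13.2% the TATA box, 23.7% the Smad box type and 0% the composite type. Over all 32851 windows these shares were 35.7%, 37.4%, 13.6%, 21% and 0.895%.

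Ratios of partner chains within each library show which pairs kept step. The Col4a1 to Col4a2 FPKM ratio was 1.004, 1.18 and 0.986 with AGEs, 0.880, 1.12 and 0.877 in high glucose and 0.681, 1.26 and 1.12 in control, and the groups overlapped (log2 difference of high glucose from control -0.05, exact two-sided permutation p = 1). The Col4a3 to Col4a4 ratio was 0.257, 0.207 and 0.368 with AGEs, 0.461, 0.482 and 0.487 in high glucose and 0.191, 0.185 and 0.192 in control. No groups overlapped: the ratio was 2.51-fold higher in high glucose than in control, also in the first high-glucose library, where both chains were low (exact permutation p = 0.1, the smallest 3 against 3 libraries allow, 0.171 adjusted over 12 tests). The Col4a5 to Col4a6 ratio was 3.95, 4.002 and 3.26 with AGEs, 2.57, 2.50 and 2.56 in high glucose and 4.17, 3.58 and 3.14 in control, lower in every high-glucose library (log2 difference from control -0.50, exact permutation p = 0.1, 0.171 adjusted).

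**Figure D2:**
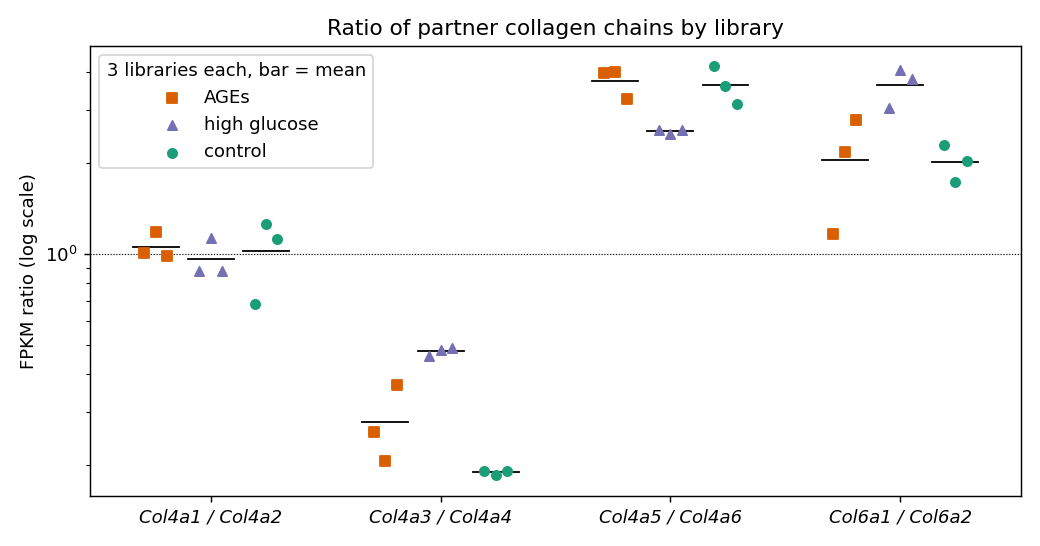
Ratio of FPKM of partner collagen chains in each library (log axis), with AGEs, high glucose and control from left to right for each pair, a bar at each group mean and a dotted line at a ratio of 1. The Col4a3 to Col4a4 ratio is 0.461 to 0.487 in high glucose, above all AGEs and control libraries, while the Col4a1 to Col4a2 ratios of the groups overlap.

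Type VI had only Col6a1 and Col6a2 above the filter, and both rose in high glucose. Col6a1 (chromosome 10, 76708792 to 76726168, minus strand) had 0.248, 0.284 and 0.367 FPKM with AGEs, 1.65, 1.76 and 1.79 FPKM in high glucose and 0.227, 0.310 and 0.313 FPKM in control. Col6a2 (chromosome 10, 76595762 to 76623630, minus strand) had 0.213, 0.130 and 0.133 FPKM with AGEs, 0.543, 0.433 and 0.471 FPKM in high glucose and 0.0990, 0.179 and 0.155 FPKM in control. High-glucose libraries lay above all others for both genes. In high glucose relative to control, Col6a1 rose by log2 2.42 (SE 0.22, edgeR adjusted p = 3.46e-05) and Col6a2 rose 2.94-fold (log2 1.55, SE 0.29, edgeR adjusted p = 0.00216). The third chain of the classical type VI trimer, Col6a3, had 17 counts over the 9 libraries, and its alternatives Col6a4, Col6a5 and Col6a6 had 4, 4 and 0. The Col6a1 to Col6a2 ratio was 1.16, 2.18 and 2.77 with AGEs, 3.03, 4.06 and 3.79 in high glucose and 2.30, 1.73 and 2.02 in control (log2 difference of high glucose from control 0.85, exact permutation p = 0.1, 0.171 adjusted). The genes are on the same strand with 85162 bases between them, and the RefSeq window of Col6a1, the chain with the largest change at 1 FPKM or more, is chr10:76725995-76726294 (minus strand, GRCm38.p6). It holds none of the 5 motifs and so has no capitals.
Col6a1: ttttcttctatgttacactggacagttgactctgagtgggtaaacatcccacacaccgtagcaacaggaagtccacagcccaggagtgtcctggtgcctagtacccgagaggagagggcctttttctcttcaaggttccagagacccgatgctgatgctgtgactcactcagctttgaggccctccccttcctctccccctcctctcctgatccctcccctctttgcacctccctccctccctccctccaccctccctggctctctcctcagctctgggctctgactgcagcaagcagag

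Fibrillar RNA was low, with Col5a1, a chain of the type V collagen that regulates fibril diameter, as its main member. Col5a1 had 1.49, 0.994 and 1.26 FPKM with AGEs, 1.54, 2.05 and 2.10 FPKM in high glucose and 1.02, 1.26 and 1.22 FPKM in control. It rose 1.43-fold in high glucose over control (log2 0.52, SE 0.17, edgeR adjusted p = 0.0407). This call was lost without any 1 of 6 libraries: control 1, 2 or 3, high glucose 2 or 3, or AGEs 3 (adjusted p 0.137, 0.0656, 0.0724, 0.117, 0.123 and 0.0531). Col1a1 (chromosome 11, 94936224 to 94953042, plus strand), a chain of type I collagen, had 0.0665, 0.103 and 0.0911 FPKM with AGEs, 0.326, 0.583 and 0.546 FPKM in high glucose and 0.0557, 0.0879 and 0.0288 FPKM in control. It rose 7.25-fold in high glucose over control (log2 2.86, SE 0.41, edgeR adjusted p = 0.000521), the largest change among the called chains, at a level below 1 FPKM. Its trimer partner Col1a2 had 4 to 27 counts in each library and a log2 fold change of 0.57 (SE 0.93, edgeR adjusted p = 0.674), so a ratio of the pair rests on few counts and is not given. Col3a1 and Col2a1 each had 0 counts in 1 control library, and neither passed the test in any comparison. Col11a2, a chain of cartilage fibrils, had 0.0144, 0.0136 and 0.0131 FPKM with AGEs, 0.0921, 0.105 and 0.148 FPKM in high glucose and 0.0293, 0.00694 and 0.0617 FPKM in control (log2 1.63 for high glucose against control, SE 0.68, edgeR adjusted p = 0.0863). It passed the test without the third control library (log2 2.47, edgeR adjusted p = 0.0264).

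Of the FACIT chains, Col16a1 (chromosome 4, 130047840 to 130099283, plus strand) made up most of the RNA. It had 2.48, 2.23 and 2.73 FPKM with AGEs, 4.72, 5.47 and 5.53 FPKM in high glucose and 2.49, 2.50 and 2.57 FPKM in control. It rose 1.84-fold in high glucose over control (log2 0.88, SE 0.11, edgeR adjusted p = 0.000208). Col12a1, which binds fibrils in tendon and other tissues, had 0.191, 0.134 and 0.152 FPKM with AGEs, 0.113, 0.309 and 0.443 FPKM in high glucose and 0.0998, 0.147 and 0.0735 FPKM in control. The high-glucose libraries of Col12a1 spread widely and overlapped the control libraries (log2 1.24, SE 0.44, edgeR adjusted p = 0.0511). Col7a1, the anchoring fibril chain that ties epithelial basement membranes to the tissue below, had 0.104, 0.149 and 0.120 FPKM with AGEs, 0.229, 0.302 and 0.342 FPKM in high glucose and 0.173, 0.0910 and 0.107 FPKM in control. It rose 2.07-fold in high glucose over control (log2 1.05, SE 0.29, edgeR adjusted p = 0.0182), a call that was lost without control 2 (adjusted p = 0.0638), control 3 (0.0632) or high glucose 3 (0.066).

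**Figure D3:**
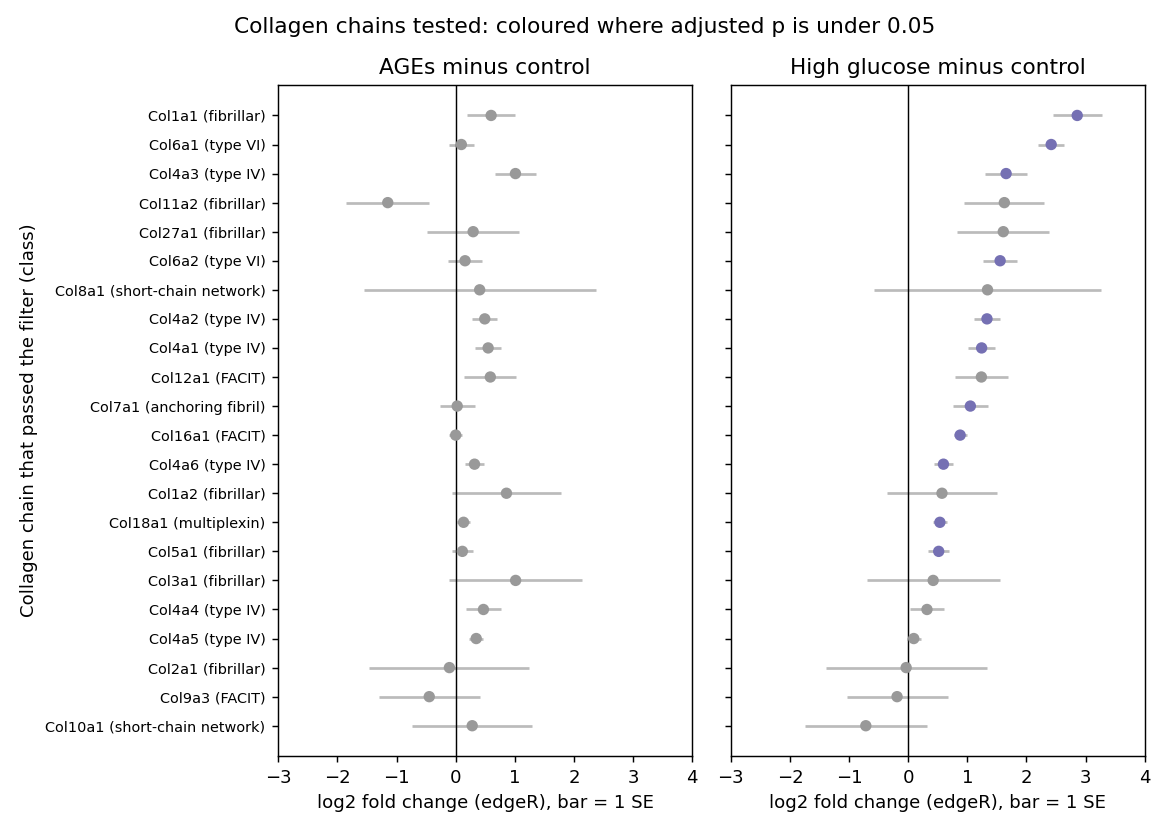
Log2 fold change (edgeR) of the 22 collagen chains that passed the filter, with AGEs minus control on the left and high glucose minus control on the right, ordered by the change in high glucose. Bars are 1 SE, and coloured points have an adjusted p under 0.05: 11 chains on the right and 0 on the left.

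Summed by class, high-glucose libraries lay above all control libraries in every class. Summed fibrillar FPKM was 1.43 ± 0.229 with AGEs, 2.60 ± 0.508 in high glucose and 1.31 ± 0.147 in control, and summed type VI FPKM was 0.460 ± 0.0446, 2.22 ± 0.0401 and 0.430 ± 0.0901 in the same order of groups (SD, n = 3 each). Summed type IV FPKM was 17.3 ± 2.01 with AGEs, 20.6 ± 3.76 in high glucose and 13.1 ± 0.470 in control, and summed FACIT FPKM was 2.69 ± 0.242 with AGEs, 5.62 ± 0.604 in high glucose and 2.67 ± 0.0458 in control. The log2 differences of high glucose from control were 0.97 for fibrillar, 0.64 for type IV, 2.39 for type VI, 1.07 for FACIT and 0.72 for all other chains. Each had an exact permutation p of 0.1, the smallest that 3 against 3 libraries allow, and 0.1 after adjustment over the 5 classes. The sum of all other chains was almost all Col18a1, so its difference is largely that of Col18a1. Col18a1 averaged 49.2 of 49.4 FPKM with AGEs, 74.7 of 75.1 FPKM in high glucose and 45.6 of 45.8 FPKM in control. Deposited FPKM runs high in the high-glucose libraries relative to the test's scaling, by log2 0.18 against control. On the test's scaling these differences were 0.79, 0.46, 2.21, 0.89 and 0.54. Between AGEs and high glucose the FPKM differences were -0.85 for fibrillar, -2.28 for type VI, -1.06 for FACIT and -0.62 for all other chains (exact permutation p = 0.1 each, 0.125 adjusted). For type IV the difference was -0.24 (exact permutation p = 0.3), and -0.04 on the test's scaling.

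**Figure D4:**
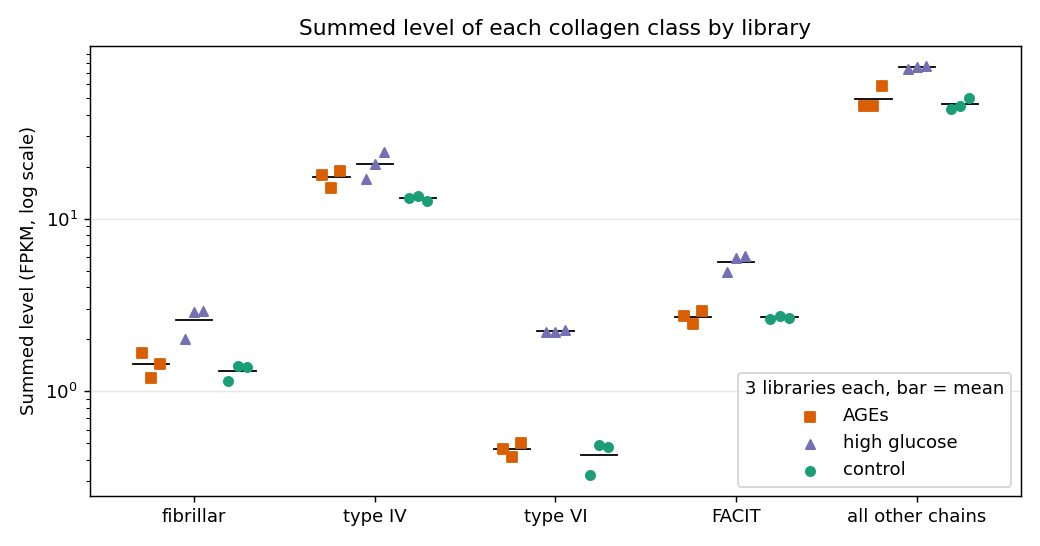
Summed FPKM (log axis) of the chains of each collagen class in each library, with AGEs, high glucose and control from left to right and a bar at each group mean. Type VI is 2.19 to 2.27 FPKM in high glucose, above 0.326 to 0.504 FPKM in the AGEs and control libraries.

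AGEs against control asks which chains differ under glycated protein. No library came from cells given unmodified protein, so glycation and added protein cannot be told apart. The comparison shares its control libraries with the one above. Of the 22 chains tested 0 were called by edgeR, against 0.0848% of all genes, 15 in number (0.0509% higher and 0.0339% lower). DESeq2 and limma at 2 pseudocounts also called 0 chains. At an unadjusted edgeR p under 0.05, 4 chains were higher (Col4a1, Col4a2, Col4a3 and Col4a5) and 0 lower, against 12.4% of all genes in either direction. The median log2 fold change was 0.31 over the 22 chains and -0.00 over all genes. All 6 type IV log2 fold changes were positive without passing the test: Col4a3 at 1.01 (SE 0.35, edgeR adjusted p = 0.334), Col4a1 at 0.55 (SE 0.22), Col4a2 at 0.49 (SE 0.21), Col4a4 at 0.47 (SE 0.29), Col4a5 at 0.35 (SE 0.12) and Col4a6 at 0.32 (SE 0.17). The FPKM of the AGEs libraries lay above all control libraries for Col4a2, Col4a3, Col4a4 and Col4a5, which is 4 of 22 chains (0 lay below), against 19.5% of all genes in either direction (7.8% above and 11.7% below). A positive sign was not particular to type IV: 19 of the 22 chains had one. Outside type IV, Col16a1 differed by log2 0.00 (SE 0.11), Col6a1 by 0.10 (SE 0.21) and Col18a1 by 0.13 (SE 0.12). Among chains below 1 FPKM, Col3a1 differed by 1.01 (SE 1.12), Col1a2 by 0.86 (SE 0.92), Col1a1 by 0.60 (SE 0.40) and Col12a1 by 0.59 (SE 0.44). The negative values were those of Col11a2 (-1.15, SE 0.70), Col9a3 (-0.45, SE 0.86) and Col2a1 (-0.11, SE 1.35). Summed type IV FPKM differed from control by log2 0.40 (exact permutation p = 0.1, the smallest possible, 0.5 adjusted over the 5 classes), and the other class sums by 0.00 to 0.12 (exact permutation p from 0.4 to 1).

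AGEs against high glucose compares the treatments directly. In it 9 of 22 chains were lower with AGEs and 0 higher, which is 40.9%, against 39.9% of all genes called (19.7% higher and 20.2% lower). In FPKM, 12 chains had AGEs libraries all below high glucose and 0 all above, against 53.8% of all genes in either direction (37% below and 16.8% above). Among them were Col6a1, at log2 -2.32 (SE 0.21, edgeR adjusted p = 3.84e-05) and Col1a1, 4.78-fold lower (log2 -2.26, SE 0.40, edgeR adjusted p = 0.00168). Col6a2 (log2 -1.40), Col7a1 (-1.02), Col16a1 (-0.88), Col4a2 (-0.84), Col4a1 (-0.69) and Col18a1 (-0.40) were lower as well. Col11a2 was called too (log2 -2.77, SE 0.71, edgeR adjusted p = 0.0121), but it passed the filter only through its high-glucose libraries, with 8 counts in each AGEs library, so its size and its place among the 9 calls are a description. Col11a2 and Col27a1 are also among the 12 chains without overlap. Col27a1 had 27, 16 and 54 counts in high glucose, 8, 5 and 23 with AGEs and 4, 16 and 8 in control. A low chain can pass the filter through the group in which it is high, so the 12 against 0 is a description too. Calls were lost for Col18a1 (edgeR adjusted p 0.0507 to 0.0778) and Col4a1 (0.0677 to 0.1) without any 1 of the 3 high-glucose libraries or AGEs 1 or 2. The Col7a1 call was lost without high glucose 2 or 3 or AGEs 1 (0.0531 to 0.0702). The trimer partners Col4a3 (log2 -0.64, edgeR adjusted p = 0.174), Col4a4 (0.15, adjusted p = 0.726) and Col4a5 (0.25, adjusted p = 0.118) did not pass. Without the first high-glucose library Col4a3 was lower with AGEs (log2 -0.98, edgeR adjusted p = 0.0106), and without the second AGEs library Col4a5 was higher (log2 0.35, edgeR adjusted p = 0.0451). Without the third AGEs library Col4a6 was lower (log2 -0.47, edgeR adjusted p = 0.0291).

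Collagen chains need enzymes and chaperones in the endoplasmic reticulum to fold, proteases and a peroxidase to mature and cross-link, and receptors to be sensed. Of 46 such genes 37 passed the filter. In high glucose against control 14 rose and 10 fell, which is 64.9% of those tested, against 39.3% of all genes (19.6% higher and 19.7% lower). The share of all genes was larger, 51.3% (26.3% higher and 25.1% lower), where only genes at a mean of at least 1 CPM were tested. The 21 folding and modification genes split, with 5 higher and 9 lower, while 4 of 7 processing and cross-linking genes rose and 0 fell, and 5 of 9 receptor and uptake genes rose and 1 fell. With AGEs against control edgeR called 0 of the 37, with 5 higher and 3 lower at an unadjusted p under 0.05, a cut that 12.4% of all genes passed, while DESeq2 called 1 (P3h4, lower). With AGEs against high glucose 12 were higher and 14 lower, 10 and 5 of them in folding and modification. These are 70.3% of the 37, against 39.9% of all genes (19.7% higher and 20.2% lower). Where only genes at a mean of at least 1 CPM were tested, 51.7% of all genes were called (25.2% higher and 26.6% lower). The 14 lower genes include Itga10, which passed the filter only through its high-glucose libraries. It had 82, 30 and 82 counts there and 6, 9 and 0 with AGEs, so its place among the 14 is a description. On log2(FPKM + 1) limma called 9 higher and 18 lower, and of all genes 13.1% higher and 31.2% lower. Without the first AGEs library edgeR called 17 in place of 26.

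The prolyl hydroxylase subunits and a cyclophilin fell in high glucose relative to control. P4ha1, a catalytic subunit of the enzyme that stabilises the triple helix, had 79.0, 76.9 and 58.1 FPKM with AGEs, 34.3, 37.8 and 38.6 FPKM in high glucose and 78.2, 78.2 and 76.7 FPKM in control. It fell by 1.25 on the log2 scale relative to control (SE 0.10, edgeR adjusted p = 2.21e-05). P4ha2, the other catalytic subunit tested, fell by 1.11 (SE 0.08, edgeR adjusted p = 1.24e-05), P4hb, the shared subunit and protein disulfide isomerase, fell by 0.91 (SE 0.07, edgeR adjusted p = 1.62e-05), and Ppib, a prolyl isomerase that speeds helix folding, fell by 0.94 (SE 0.07, edgeR adjusted p = 1.93e-05). P3h4, a component of the lysyl hydroxylation machinery, rose 2.07-fold (log2 1.05, SE 0.09, edgeR adjusted p = 2.92e-05). Serpinh1 (HSP47), the collagen-specific chaperone, had 93.9, 49.3 and 106 FPKM with AGEs, 61.2, 150 and 118 FPKM in high glucose and 89.4, 81.7 and 96.5 FPKM in control, which overlapped (log2 0.12, SE 0.33, edgeR adjusted p = 0.818).

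Pxdn, the peroxidase that makes the sulfilimine cross-link of type IV networks, had 1.78, 1.67 and 2.47 FPKM with AGEs, 5.79, 4.82 and 7.57 FPKM in high glucose and 2.23, 1.93 and 2.02 FPKM in control. It rose 2.60-fold in high glucose over control (log2 1.38, SE 0.20, edgeR adjusted p = 0.000488). The receptor tyrosine kinases for collagen moved in opposite directions. Ddr1, which binds type IV and fibrillar collagen, had 12.9, 16.9 and 16.5 FPKM with AGEs, 47.3, 47.0 and 47.5 FPKM in high glucose and 17.4, 17.2 and 18.1 FPKM in control, and rose 2.38-fold in high glucose (log2 1.25, SE 0.11, edgeR adjusted p = 2.45e-05). Ddr2, which binds fibrillar collagen, had 35.1, 30.3 and 30.4 FPKM with AGEs, 11.3, 11.5 and 14.1 FPKM in high glucose and 28.7, 31.9 and 25.3 FPKM in control, and fell by 1.39 on the log2 scale (SE 0.11, edgeR adjusted p = 1.96e-05). Itga2, an integrin chain of a collagen receptor, rose by log2 2.08 (SE 0.41, edgeR adjusted p = 0.00313) at 0.27 FPKM or less, and Adgrg1, an adhesion receptor that binds type III collagen, rose by 1.19 (SE 0.25, edgeR adjusted p = 0.00398). The propeptide processing genes Mep1a (log2 1.70), Pcolce2 (0.67) and Pcolce (0.39) also rose, with edgeR adjusted p of 0.0255, 0.0288 and 0.0401. The Mep1a call was lost without control 2 or 3 or high glucose 1 or 2 (adjusted p up to 0.0931), that of Pcolce2 without any 1 control library or high glucose 1 or 3 (up to 0.0927), and that of Pcolce without control 1 or 2, high glucose 1 or 2, or AGEs 2 (up to 0.144) or with a replicate block (0.055).

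**Figure D5:**
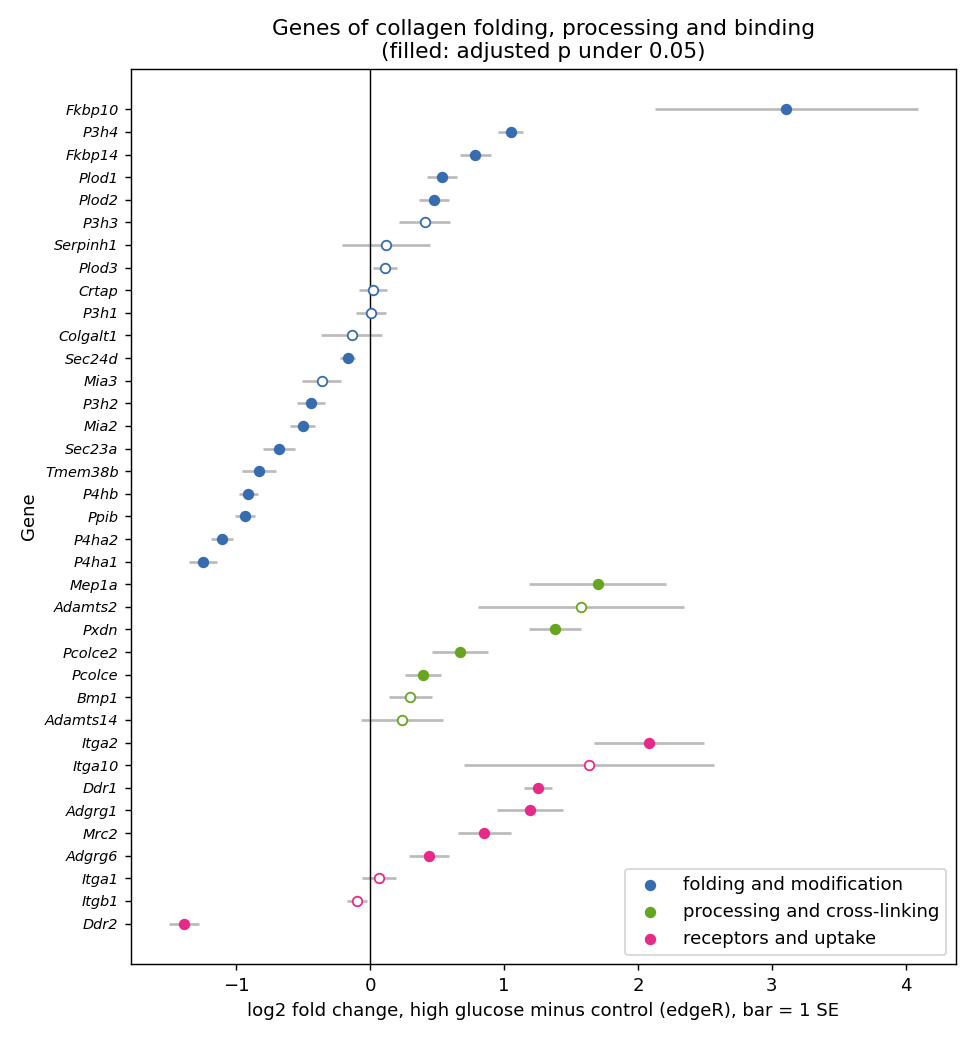
Log2 fold change (edgeR, high glucose minus control) of the 37 tested genes of collagen folding and modification, processing and cross-linking, and receptors and uptake, with bars of 1 SE and filled points where the adjusted p is under 0.05. P4ha1, P4ha2, P4hb and Ppib lie left of 0, Pxdn and Ddr1 right of it, and Ddr2 is the lowest receptor at -1.39.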

How the data were processed

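Gene counts and FPKM of 9 libraries, 3 per group, were read from 1 deposited table. The count values were deposited as whole numbers per gene. The authors' FPKM values are scaled to transcript length and depth per the file headers, and genes without counts were deposited as a small constant, taken here as 0. Per the submitters' processing notes, reads were trimmed with cutadapt 1.9, checked with FastQC and set against GRCm38. No source used here names an aligner or a counter, or says whether strand was used. Low counts fell on 4 (9186 values) and 8 (4896) more often than on 3 (2519) and 7 (1632), and this was not corrected.

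Counts were tested with edgeR 4.0.16 in R 4.3.3: filterByExpr, TMM scaling (factors 0.935 to 1.10), a quasi-likelihood fit of all 9 libraries and Benjamini-Hochberg adjustment over 17680 genes, called at an adjusted p under 0.05. The common coefficient of variation was 0.278. Summed FPKM and FPKM ratios were compared by exact two-sided permutation tests. Alternatives used DESeq2 1.42.0, limma 3.58.1 on log2(FPKM + 1) or log2(FPKM + 0.1), other scalings and filters, a transcript length offset, a replicate block and leaving out each library. The fit was checked on counts simulated from its own model, with changes placed only in genes above a mean of 1 CPM. That check does not cover lower chains or the uneven low counts. No libraries agreed within sampling noise (chi-square per degree of freedom 47.9 to 110).

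Chains at 1 FPKM or more in a group, or called, are named with values, and the related genes named are the 3 smallest p-values per list and comparison plus Serpinh1, P4hb, P4ha1, P4ha2, Pxdn, Ddr1 and Ddr2. The members and the gene lists were chosen with earlier results of these data known.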

Additional observations from a re-analysis of the deposited data

How the results depend on the processing

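The count of collagen chains higher in high glucose than in control was 11, between 10 and 12 under other tools, scalings and filters, and 8 to 13 when single libraries were left out (8 without the third high-glucose library, 13 without the first). The count lower with AGEs than in high glucose was 9, 8 to 11 under other tools and filters, and 6 to 10 chains called in either direction when single libraries were left out. AGEs against control gave 0 chains under every setting run. For the folding, processing and receptor genes, AGEs against control gave 1 with DESeq2 (P3h4) and 0 to 1 with a library left out (1, Adgrg1, without the third AGEs library), in place of 0, and AGEs against high glucose gave 26, with 17 to 26 when single libraries were left out and 21 to 27 under the other settings. The labels do not say whether replicate numbers pair the libraries, and same-numbered deviations correlated at -0.0673 to 0.0844. Differently numbered libraries were not set beside these, so pairing is not settled. A replicate block gave 10, 0 and 9 chains for high glucose against control, AGEs against control and AGEs against high glucose, with Col5a1 lost (edgeR adjusted p = 0.0742). Of the related genes named, the block also lost Pcolce in high glucose against control (0.055) and Itga2 in AGEs against high glucose (0.0872). Col5a1 was also lost with no low-count filter (0.0554) and with the transcript length offset (0.0634).

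With summed CPM in place of FPKM, the log2 difference of high glucose from control was 0.54 for all other chains, 0.91 for FACIT and 2.08 for type VI, and that of AGEs from high glucose was -0.42, -0.85 and -1.94. With summed FPKM divided by the TMM factor, a setting chosen after seeing the data, the differences were 0.54 for all other chains and 0.89 for FACIT in high glucose against control, and -0.42, -0.86 and -2.08 in AGEs against high glucose for all other chains, FACIT and type VI. The cause was not tested. A threshold of 2 FPKM left 6 chains in place of 10. No direction of a called result was reversed. The 22 chains that did not pass the filter had 0 to 58 counts over all 9 libraries, and no change can be read for them.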
